A study of Homo sapiens
Mus musculus with 6 samples.

Results

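The 34 genes described here were listed as KRAB zinc finger genes of the cluster at cytoband 19p12 on chromosome 19, and were measured in human HEK293 cells. The cytoband of each single gene was not looked up, so some may lie outside 19p12. These genes were taken by name from the human table, which held 23855 gene entries after exact repeats were left out. All 34 were found in it. The cluster was chosen by the expression of these same wells, because zinc finger genes were frequent among those lost in the HEK lines that carry Jag1. The values of the Jag1 lines, against the control line and against each other, are therefore a description of the members, and no p is given for a member there. A member said to be called there passed the threshold used for all genes, which is no test of that member. The contrast between the partner cells, which the choice did not use, was tested.

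Each of 6 wells held a human and a mouse cell line in co-culture. The human cells were HEK293-Flp-In, an embryonic kidney line with a fixed site for inserting a transgene, either as the control line (HEK-control), with wild-type Jag1 (HEK-Jag1WT) or with Jag1Ndr, the product of the Nodder allele of this Notch ligand (HEK-Jag1Ndr). The mouse cells were C2C12 myoblasts, either the control line (C2C12-control) or a line made to express Notch1 (C2C12-Notch1). Each HEK line was placed once with each C2C12 line, so there were 2 wells per HEK line and 3 per C2C12 line, all on 1 plate. The C2C12 cells settled for 8 h and were all transfected with 1.6 ug per well of the plasmid pcDNA5, the HEK cells were added 18 h later, and the wells were lysed after 6 h. Both Jag1 lines, but not HEK-control, were kept under 300 ug per mL of hygromycin, and C2C12-Notch1 under 1 ug per mL of puromycin, so the transgene, the selection and the history of each line cannot be told apart. Whether each line is a single clone is not given in the sources used here.

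KRAB zinc finger proteins form a large family of DNA-binding repressors. A row of C2H2 zinc fingers reads the DNA, and the KRAB domain recruits TRIM28, also called KAP1, which brings in the histone methyltransferase SETDB1 and heterochromatin protein HP1. Many of them bind transposable elements, and the clusters on chromosome 19 grew by repeated duplication, much of it in primates. In this cluster ZNF91 is known for repressing SVA elements and ZNF93 for repressing L1 elements, and ZNF675 is also known as an inhibitor of TRAF6 signalling. Members of such a young cluster are alike in sequence. How reads that match several of them were assigned is not given in the sources used here, so single values are uncertain to that extent.

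Human gene reads per well ranged from 4081452 to 10292878. Reads on mouse Jag1 stood at 26.95 and 27.2 per 1000000 human reads in the HEK-control wells and at 8221 to 9448 in the Jag1 wells, in the order that the labels of the lines give. Of 16 HEK markers 12 had a mean over 1 RPKM (reads per kilobase of gene per 1000000 reads), with STMN2 and SALL4 near 0. Of 13 C2C12 markers 9 were under 1 RPKM and MYF5 and MYOG had 0 human reads. The summed C2C12 list stood at 28.7 to 29.2 RPKM in HEK-control, 39.0 to 40.8 in HEK-Jag1WT and 23.8 to 27.2 in HEK-Jag1Ndr wells, with TNNT1 the largest part. Its part in the results was not tested.

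The number of members with reads in each HEK line is a description, since the members were chosen for losses in the Jag1 lines. The same count over all genes was not made. With the 2 wells of a line added, 30 of 34 members had more than 3 reads in HEK-control, 19 in HEK-Jag1WT and 21 in HEK-Jag1Ndr. Scaled down to the 10525232 reads of HEK-Jag1WT, the shallowest line, HEK-control would still have 29. Summed over all members, HEK-control held 358.9 and 379.9 reads per 1000000 human reads beside C2C12-control and C2C12-Notch1, HEK-Jag1WT 260.9 and 297.9, and HEK-Jag1Ndr 289.0 and 329.9. Both HEK-control wells lay above all 4 Jag1 wells, which restates the choice of the members. In bulk wells, fewer cells that express a gene and less of its RNA per cell cannot be told apart. The HEK-Jag1Ndr well beside C2C12-control held 7965231 mouse reads, the most of any well. Its human reads were 0 on ZNF91, ZNF492, ZNF737, ZNF257 and ZNF726, 397 on ZNF714 and 258 on ZNF100. Whether mouse reads were counted on members was not tested.

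**Figure D1:**
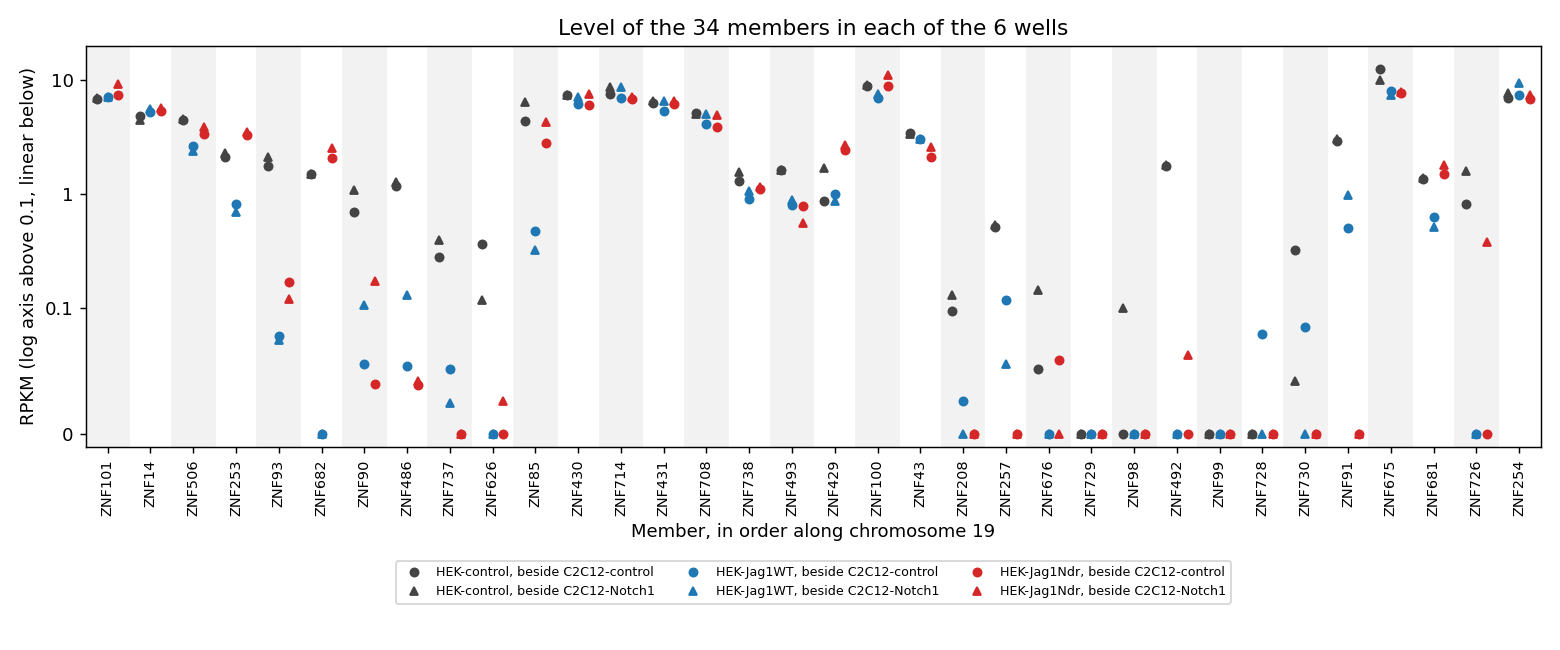
Level of each of the 34 members (RPKM, log axis above 0.1 and linear below) in the 6 wells, with members in their order along chromosome 19, colours for the HEK line and shapes for the C2C12 partner. ZNF430 to ZNF708 lie together in all lines between 3.91 and 8.70 RPKM, while ZNF93, ZNF486 and ZNF492 are separated from HEK-control in both Jag1 lines and ZNF682 in HEK-Jag1WT.

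The members with the highest levels were present in all lines. ZNF675, the highest at a mean of 8.95 RPKM, stood at 12.5 and 10.0 RPKM in HEK-control beside C2C12-control and C2C12-Notch1, at 8.05 and 7.40 in HEK-Jag1WT and at 7.73 and 7.93 in HEK-Jag1Ndr. Both control wells were above the other 4. ZNF100 stood at 8.80 and 8.99 RPKM in HEK-control, 6.95 and 7.63 in HEK-Jag1WT and 8.82 and 11.1 in HEK-Jag1Ndr, with the HEK-Jag1WT wells lowest.

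ZNF714 stood at 7.57 and 8.70 RPKM in HEK-control, 6.93 and 8.66 in HEK-Jag1WT and 6.84 and 7.17 in HEK-Jag1Ndr. ZNF254, a zinc finger gene at the far end of the cluster, stood at 6.995 and 7.66 RPKM in HEK-control, 7.47 and 9.38 in HEK-Jag1WT and 6.82 and 7.42 in HEK-Jag1Ndr. In ZNF714 the HEK-Jag1Ndr wells lay below those of HEK-control, and HEK-Jag1WT overlapped both. In ZNF254 the HEK-control wells overlapped those of each Jag1 line, and HEK-Jag1WT lay just above HEK-Jag1Ndr.

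ZNF101 and ZNF14, at the other end, varied little. ZNF101 stood at 6.89 and 6.92 RPKM in HEK-control, 7.12 and 7.15 in HEK-Jag1WT and 7.44 and 9.21 in HEK-Jag1Ndr. ZNF14 stood at 4.87 and 4.49 RPKM in HEK-control, 5.215 and 5.53 in HEK-Jag1WT and 5.31 and 5.72 in HEK-Jag1Ndr. In both genes the HEK-control wells were lowest, by little. With ZNF429 they had the highest mean log2 difference of the Jag1 lines against HEK-control of all members tested, at 0.07 (SE 0.20) and 0.30 (SE 0.18) for ZNF101 and at 0.23 (SE 0.17) and 0.27 (SE 0.16) for ZNF14, in HEK-Jag1WT and HEK-Jag1Ndr respectively. Further members with a steady level were ZNF430, ZNF431 and ZNF708, whose log2 differences from HEK-control lay between -0.18 and 0.02 in both Jag1 lines. ZNF43 was at -0.16 (SE 0.16) in HEK-Jag1WT and -0.46 (SE 0.16) in HEK-Jag1Ndr.

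Another set of members was detected in HEK-control and was at or near 0 reads in both Jag1 lines. ZNF492 stood at 1.74 and 1.81 RPKM in HEK-control, from 17 and 45 reads. It had 0 reads in both HEK-Jag1WT wells and 0 and 1 in the HEK-Jag1Ndr wells. Over the reads of each line it was at least 15.1-fold lower in HEK-Jag1WT than in HEK-control. Against the 1 read of HEK-Jag1Ndr the ratio was 59.6, with a 95% counting interval of 10.3 to 2393.

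ZNF93, the L1 repressor gene, stood at 1.76 and 2.13 RPKM in HEK-control, 0.0773 and 0.0740 in HEK-Jag1WT and 0.167 and 0.119 in HEK-Jag1Ndr. The control wells were far above the other 4. Its reads per 1000000 in HEK-control were 26.7 times those in HEK-Jag1WT (counting interval 7.14 to 225) and 14.0 times those in HEK-Jag1Ndr (5.75 to 44.5). Nearby members were also highest in HEK-control. ZNF486 stood at 1.16 and 1.27 RPKM in HEK-control and between 0.0391 and 0.130 in the Jag1 wells, and ZNF90 at 0.697 and 1.08 in HEK-control and between 0.0399 and 0.170 in the Jag1 wells.

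ZNF737 and ZNF257 were low in HEK-control already. ZNF737 stood at 0.277 and 0.394 RPKM there, at 0.0517 and 0.0248 in HEK-Jag1WT and at 0 in both HEK-Jag1Ndr wells. ZNF257 stood at 0.511 and 0.535 RPKM in HEK-control, at 0.116 and 0.0554 in HEK-Jag1WT and at 0 in both HEK-Jag1Ndr wells. Each had 3 reads in all in HEK-Jag1WT, so a difference between the Jag1 lines was not detectable at this depth. ZNF726 and ZNF208 were too low for the test. ZNF726 had 36 reads in HEK-control, 0 in HEK-Jag1WT and 5 in HEK-Jag1Ndr, all 5 in 1 well, and ZNF208 had 13, 1 and 0 reads.

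Smaller differences from HEK-control were measured at ZNF493, at a log2 difference of -1.26 (SE 0.29) in HEK-Jag1WT and -1.26 (SE 0.27) in HEK-Jag1Ndr. For ZNF675 these were -0.52 (SE 0.15) and -0.49 (SE 0.14), and for ZNF738 -0.55 (SE 0.18) and -0.33 (SE 0.16). The 2 comparisons share the HEK-control wells.

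The Jag1 lines were then compared with each other. The wells are those whose low values led to the choice of the cluster, and a member lost in only 1 of the lines has to differ between them, so this too is a description. Of the 25 members that passed the filter on low counts, 7 were higher in HEK-Jag1Ndr than in HEK-Jag1WT and 1 was lower by edgeR's quasi-likelihood test with Benjamini-Hochberg adjusted p under 0.05. Over all 13596 genes tested, 28.2% were called higher and 29.9% lower. In either direction these were 32.0% of the members and 58.2% of all genes. At least 4-fold higher were 3 members, ZNF682, ZNF85 and ZNF253, each lower in HEK-Jag1WT than in HEK-control, and ZNF91 was at least 4-fold lower. Over all genes the shares were 1.79% and 0.625%, and nothing is read from the comparison. The members' median log2 difference was 0.10 and that of all genes -0.03.

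ZNF682 had the largest difference of the members called higher. It stood at 1.48 and 1.51 RPKM in HEK-control and at 2.09 and 2.52 in HEK-Jag1Ndr, and had 0 reads in both HEK-Jag1WT wells. With 98 reads against 0, it was at least 24.9-fold higher in HEK-Jag1Ndr than in HEK-Jag1WT.

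ZNF85, a gene known for its expression in testis, stood at 4.41 and 6.46 RPKM in HEK-control, 0.469 and 0.322 in HEK-Jag1WT and 2.81 and 4.30 in HEK-Jag1Ndr. The HEK-Jag1WT wells lay below all others. The log2 difference between the Jag1 lines was 3.15 (SE 0.41).

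ZNF253 stood at 2.13 and 2.27 RPKM in HEK-control, 0.820 and 0.693 in HEK-Jag1WT and 3.31 and 3.53 in HEK-Jag1Ndr, so the 3 lines did not overlap. Its log2 difference between the Jag1 lines was 2.10 (SE 0.34). ZNF681 stood at 1.34 and 1.39 RPKM in HEK-control, 0.626 and 0.509 in HEK-Jag1WT and 1.502 and 1.78 in HEK-Jag1Ndr, also in 3 separate ranges. For this gene the difference was 1.54 (SE 0.26). With 2 wells per line, separate ranges were common. Wells of the 2 Jag1 lines did not overlap in 68.0% of the 25 tested members and in 73.2% of all 13596 genes.

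ZNF429 was the member whose HEK-Jag1Ndr wells lay highest above HEK-control. It stood at 0.859 and 1.68 RPKM in HEK-control, 0.998 and 0.869 in HEK-Jag1WT and 2.42 and 2.69 in HEK-Jag1Ndr. The log2 difference between the Jag1 lines was 1.47 (SE 0.34), while the HEK-control and HEK-Jag1WT wells overlapped. The other members called higher were ZNF100 at 0.45 (SE 0.12) and ZNF506 at 0.51 (SE 0.21). ZNF506 was no longer called with DESeq2 or without the C2C12-Notch1 well of HEK-Jag1WT or of HEK-Jag1Ndr, where it stood at 0.53, 0.38 and 0.38. ZNF100 was no longer called without the C2C12-Notch1 well of HEK-Jag1Ndr, at 0.31.

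ZNF91, the SVA repressor gene, went the other way. It stood at 2.92 and 3.04 RPKM in HEK-control and at 0.4995 and 0.978 in HEK-Jag1WT, and had 0 reads in both HEK-Jag1Ndr wells. The lines formed 3 separate levels. With 0 reads against 34 it was at least 14.9-fold lower in HEK-Jag1Ndr than in HEK-Jag1WT. Against the 185 reads of HEK-control it was at least 59.3-fold lower in HEK-Jag1Ndr, and the level of HEK-control was 3.98 times that of HEK-Jag1WT (counting interval 2.75 to 5.93).

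**Figure D2:**
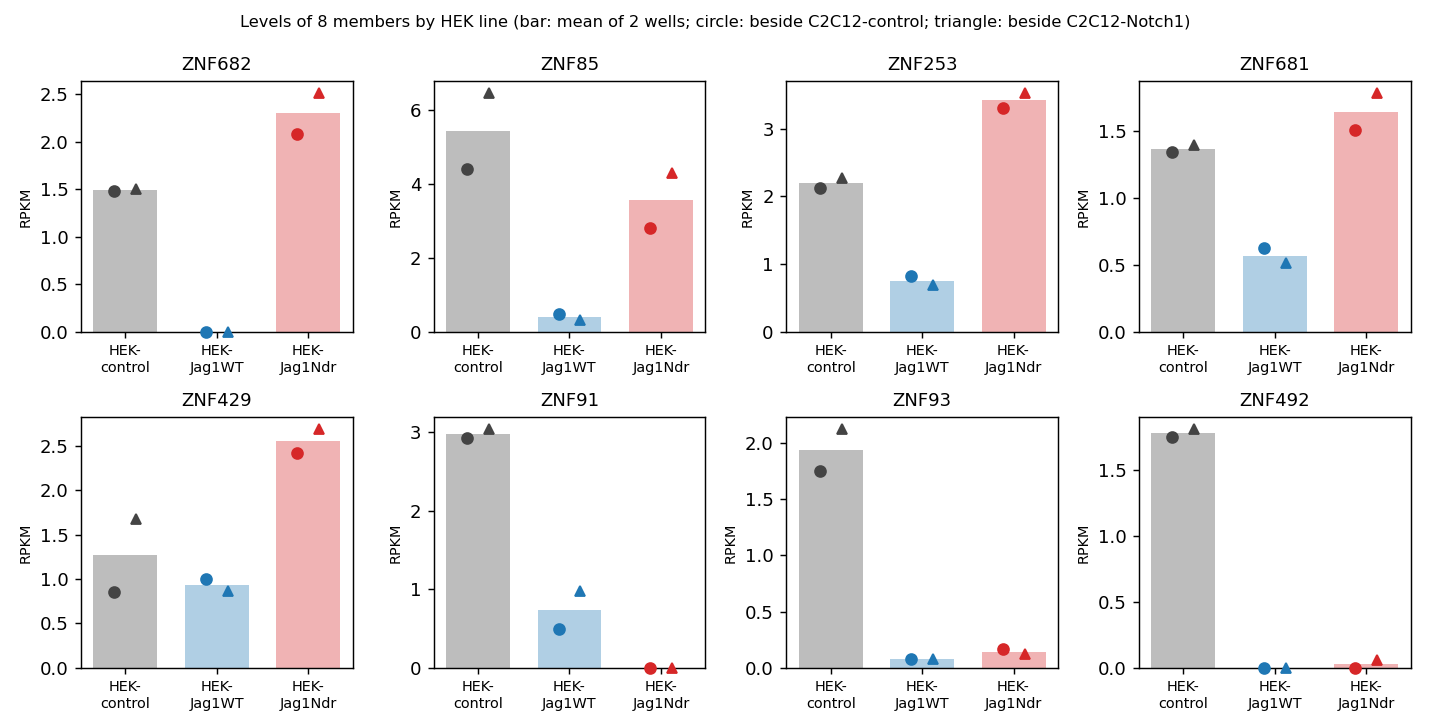
RPKM of 8 members by HEK line, with bars for the mean of 2 wells, circles for wells beside C2C12-control and triangles for wells beside C2C12-Notch1. ZNF682, ZNF85, ZNF253 and ZNF681 are lowest in HEK-Jag1WT, ZNF91 is at 0 in HEK-Jag1Ndr, and ZNF93 and ZNF492 are low in both Jag1 lines.

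For 17 of the 25 members no difference between the Jag1 lines was called, as for 5689 of all 13596 genes. This too is a description of the members. Among the highest of them, the 95% interval of the log2 difference ran from -0.33 to 0.04 for ZNF714 and -0.48 to 0.01 for ZNF254. It was -0.24 to 0.28 for ZNF430, -0.18 to 0.38 for ZNF431, -0.29 to 0.33 for ZNF675 and -0.15 to 0.61 for ZNF101. For ZNF493 it ran from -0.69 to 0.67. It was wide for members near 0 reads in both lines, from -1.28 to 3.03 for ZNF93 and from -1.63 to 2.33 for ZNF90, so these do not show that the lines were alike.

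**Figure D3:**
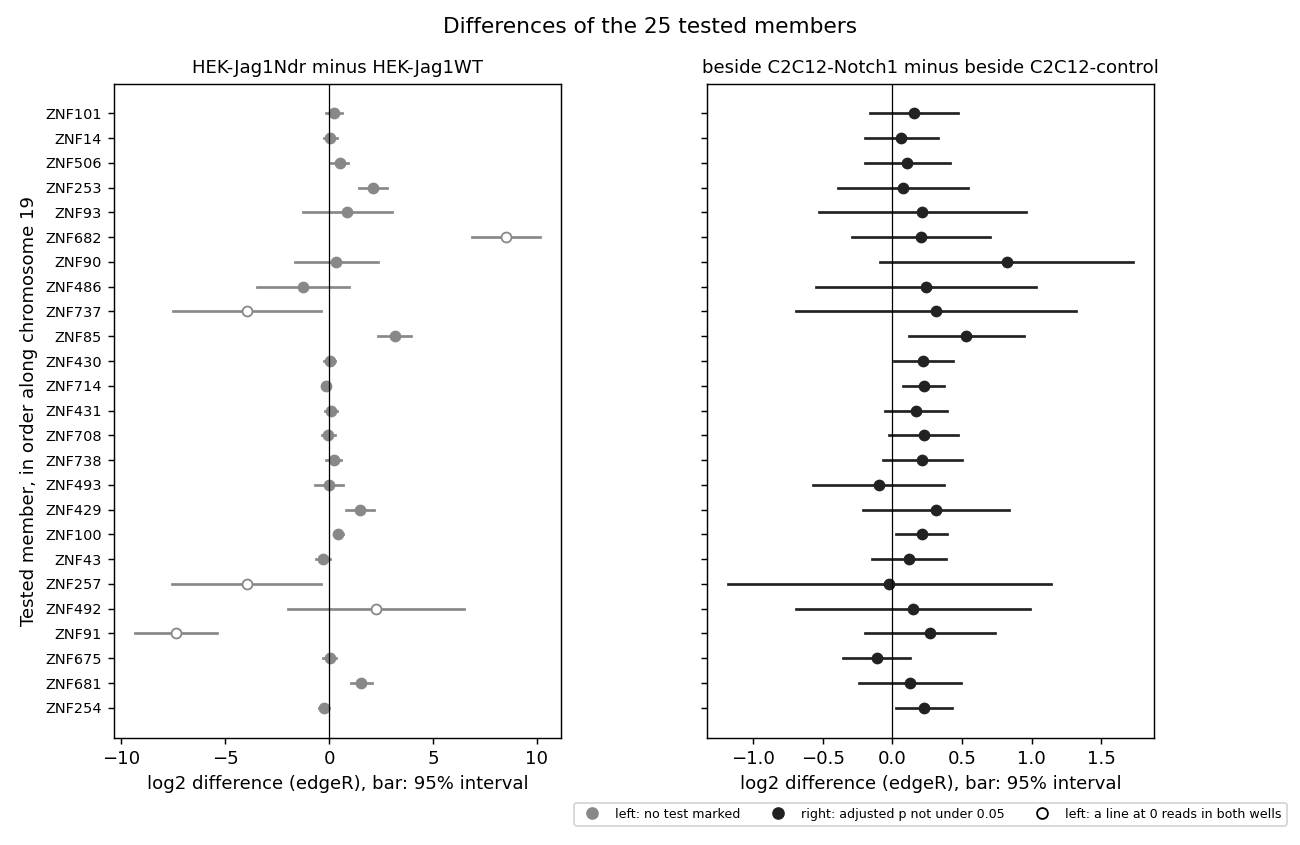
Log2 difference (edgeR) of the 25 tested members between the Jag1 lines (left) and between the C2C12 partners (right), with 95% intervals and members in order along chromosome 19. The left panel is a description and marks no test, and in the right panel no member passed. Open circles have 0 reads in both wells of a Jag1 line, where the fitted size depends on the method.

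Read along the chromosome, in the order of the RefSeq gene table, the levels were as follows. ZNF101 and ZNF14 were present in all lines. From ZNF506 to ZNF85, 9 members, all but ZNF626 were lower in HEK-Jag1WT than in HEK-control. Within that row ZNF93, ZNF90, ZNF486 and ZNF737 were low in HEK-Jag1Ndr too, ZNF506, ZNF253, ZNF682 and ZNF85 were present there, and ZNF626 had too few reads to place, with 5, 0 and 1 in the 3 lines. Next came ZNF430, ZNF714, ZNF431, ZNF708 and ZNF738, present in all lines at 0.905 RPKM or more in every well. The 4 members after them were mixed, with ZNF493 lower in both Jag1 lines, ZNF429 highest in HEK-Jag1Ndr, and ZNF100 and ZNF43 present in all lines. From ZNF208 to ZNF91, 10 members, only ZNF91 had more than 3 reads in a Jag1 line. In HEK-control 6 of these 10 (ZNF676, ZNF729, ZNF98, ZNF99, ZNF728 and ZNF730) had 5 reads or fewer as well, so a loss could be seen only at ZNF208, ZNF257, ZNF492 and ZNF91. The last members were mixed, with ZNF675 and ZNF254 present in all lines, ZNF681 lower in HEK-Jag1WT and ZNF726 near 0 in both Jag1 lines. The placing of members in this paragraph was made after their values were seen and carries no test.

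Other entries of the table that lie between the outermost members numbered 8, of which 5 had reads. ZNF724P, a zinc finger entry that is no member, lies between ZNF730 and ZNF91 and had 11 and 44 reads in HEK-control, 21 and 23 in HEK-Jag1WT and 32 and 29 in HEK-Jag1Ndr. RPSAP58, which lies near ZNF675, had the most reads of these entries, 1389 over the 6 wells.

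The remaining members had few or no reads. ZNF99 and ZNF729 had 0 reads in all 6 wells, ZNF98 and ZNF728 had 1 read each, ZNF730 had 5, ZNF626 had 6 and ZNF676 had 6. With ZNF208 at 14 and ZNF726 at 41 these are the 9 members that were not tested. For scale, 3 reads over a line equal 0.209 reads per 1000000 in HEK-control, 0.285 in HEK-Jag1WT and 0.217 in HEK-Jag1Ndr, the level that a count of 0 still allows.

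Against HEK-control the counts restate the choice of the members and are given with nothing read from them, all the more since members such as ZNF492 and ZNF737 passed the filter on low counts through HEK-control, where they are high. Of the 25 members 0 were called higher and 15 lower in HEK-Jag1WT against HEK-control, where 26.2% of all genes were called higher and 28.0% lower, 54.2% in all. In HEK-Jag1Ndr 3 were called higher and 12 lower, where 22.9% and 23.5% of all genes were, 46.4% in all. The 3 higher calls fell to 0 with DESeq2 or without the HEK-Jag1Ndr well beside C2C12-Notch1. They fell to 1 without the HEK-Jag1Ndr well beside C2C12-control, without the HEK-control well beside C2C12-Notch1, without the partner term and with limma (0.1 added). By size, 8 members were at least 4-fold lower in HEK-Jag1WT, against 1.34% of all genes, and 7 in HEK-Jag1Ndr, against 0.478%. In HEK-Jag1WT the nearest member on either side of 4-fold was ZNF257, whose level in HEK-control was 6.35 times higher on 26 reads against 3, and ZNF91, at 3.98 times.

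Other zinc finger genes are set beside the members, with nothing read from the larger shares of members chosen for losses in these lines. The other ZNF genes of chromosome 19 include ZNF724P and ZNF826P, which lie between the outermost members. Of 182 tested ZNF genes of chromosome 19 outside the cluster list, 9.34% were at least 4-fold lower in HEK-Jag1WT and 9.34% in HEK-Jag1Ndr. Of 234 on other chromosomes the share was 1.28% in each. By calls and median, the 182 genes were close to the members in HEK-Jag1Ndr against HEK-control. There 90 were called lower and 13 higher, 56.6% in all, with a median log2 difference of -0.32. The members had 60.0% called in all and a median of -0.32. In HEK-Jag1WT against HEK-control the medians were -0.13 for the 182 genes and -0.835 for the members. Between the Jag1 lines, 4 of the 182 were at least 4-fold higher in HEK-Jag1Ndr and 3 lower, and their median log2 difference was -0.23. A test of one list against another was not made.

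**Figure D4:**
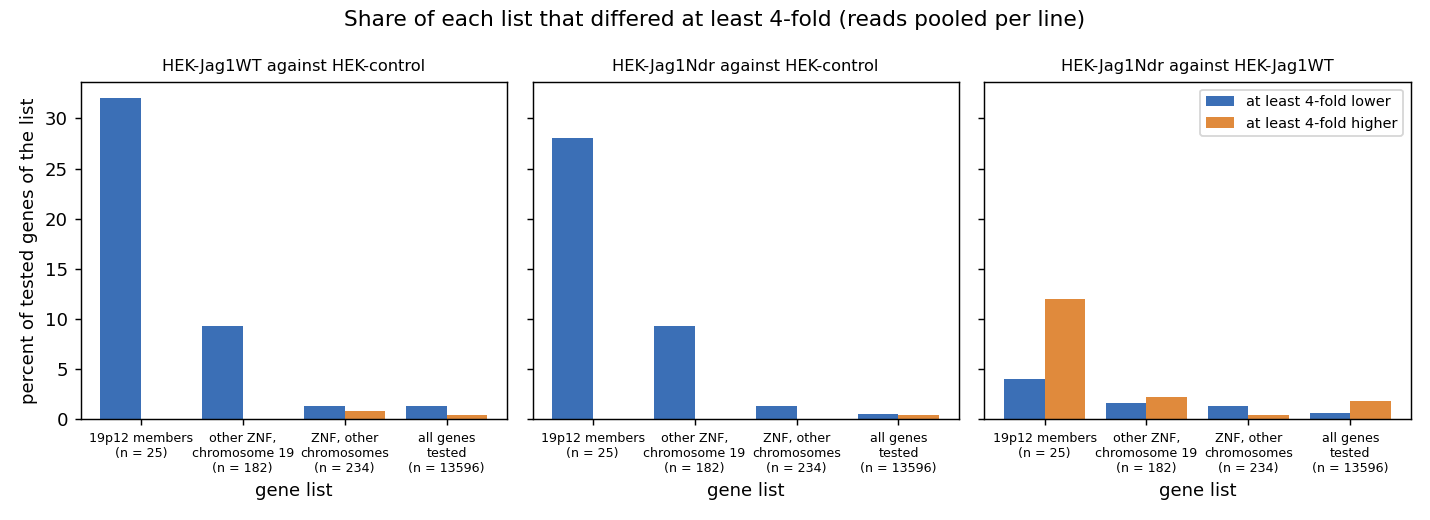
Percent of the tested genes of 4 lists that were at least 4-fold lower (blue) or higher (orange) in each comparison of HEK lines, from reads pooled per line. The 19p12 members reach 32.0% and 28.0% lower against HEK-control, and 12.0% higher between the Jag1 lines. The members were chosen for losses in the Jag1 lines, so nothing is read from these shares.

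The partner cells were compared next, to see whether the members in HEK cells differed between wells with C2C12-Notch1 and with C2C12-control. None of the 25 members passed (edgeR), with 5 at an unadjusted p under 0.05, while 5.38% of all genes were called, 3.32% higher and 2.06% lower. DESeq2 and limma also called 0 members, with 0 at an unadjusted p under 0.05. The log2 difference was above 0 for 22 of 25 members and for 50.6% of all genes, with a median of 0.21 against 0.00. Signs were not all steady under the alternatives. ZNF93 (-0.305 to 0.278), ZNF737 (-0.891 to 0.457), ZNF253 and ZNF681 also fell below 0. ZNF493, ZNF675 and ZNF257, below 0 in the main fit, also rose above it. Other zinc finger genes had medians above 0 too. The 182 on chromosome 19 had a median of 0.09, with 11 called higher and 0 lower. The 234 on other chromosomes had a median of 0.04, with 13 called higher and 3 lower. ZNF714 was nearest to passing at 0.22 (SE 0.08, adjusted p 0.0556, range 0.0525 to 0.596 over the alternatives), followed by ZNF85 at 0.53 (SE 0.21, adjusted p 0.127). The interval for ZNF93 ran from -0.53 to 0.96 and that for ZNF91 from -0.20 to 0.74. The share of mouse reads also differed between these wells, at 29.6% to 36.5% beside C2C12-Notch1 and 47.2% to 52.7% beside C2C12-control, and its part was not tested.

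Genes of a broad list around the KRAB corepressor were expressed as RNA in every line. The list also holds KDM4A, KDM4B, KDM4C, LBR and ZNF274, so not all of its genes encode KRAB cofactors. TRIM28, the KRAB corepressor, stood at 406.6 and 407.9 RPKM in HEK-control, 407.5 and 380.3 in HEK-Jag1WT and 360.1 and 342.7 in HEK-Jag1Ndr. SETDB1, which methylates histone H3 at lysine 9, stood at 17.2 and 18.2 RPKM in HEK-control, 20.5 and 17.9 in HEK-Jag1WT and 15.6 and 14.4 in HEK-Jag1Ndr. ZNF274, a zinc finger gene from outside the cluster whose protein is known to bind zinc finger gene clusters, stood at 37.2 and 37.5, 43.8 and 44.7, and 38.3 and 33.3 RPKM in the same order. All 3 had their lowest well in HEK-Jag1Ndr.

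Between the Jag1 lines, 10 of the 35 genes of this broad list were higher in HEK-Jag1Ndr and 15 lower, 71.4% against 58.2% of all genes. Against HEK-control the counts were 18 higher and 8 lower in HEK-Jag1WT, 74.3% against 54.2% of all genes, and 10 and 8 in HEK-Jag1Ndr, 51.4% against 46.4%. None was changed 4-fold in any of these comparisons. The smallest p values between the Jag1 lines belonged to ATF7IP, a partner of SETDB1, at -0.76 log2 units (SE 0.07, edgeR adjusted p 1.71e-18), and to CHD3 at 0.68, MBD3 at 0.53 and RBBP7 at 0.54, all genes of the nucleosome remodelling and deacetylase complex. Other genes of that complex in the list differed in direction, with HDAC2 at 0.29 (edgeR adjusted p 1.20e-06), CHD4 at -0.42 (5.47e-11), RBBP4 at -0.19 (0.00556) and HDAC1 at -0.0030 (0.976). GATAD2A, also of that complex but counted with the flanking genes below, was at -0.16 (edgeR adjusted p 0.011). TRIM28 was at -0.16 (SE 0.05, adjusted p 0.00182), a call lost without the HEK-Jag1WT well beside C2C12-control (0.184, range over the alternatives 0.0003195 to 0.184). SETDB1 was at -0.39 (adjusted p 4.51e-05) and ZNF274 at -0.28 (adjusted p 0.000595). The call of ZNF274 was lost with DESeq2 (0.0598) and without the C2C12-Notch1 well of HEK-Jag1WT (0.0618) or of HEK-Jag1Ndr (0.1002), in a range from 3.79e-05 to 0.1002. These 3 are named for their role and not for their p.

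Genes listed as flanking the cluster were counted by side, and a difference between the sides was not tested. The sides rest on order alone, so these genes need not lie close to the cluster or on its chromosome arm. On the side of ZNF101, 3 of 11 tested genes of the flanking list were higher in HEK-Jag1Ndr than in HEK-Jag1WT and 5 lower, where 28.2% and 29.9% of all genes were. On the side of ZNF254, 8 of 9 were lower and 0 higher, with a median log2 difference of -0.66. URI1, a prefoldin-like gene of that side, stood at 72.9 and 73.4 RPKM in HEK-control, 78.3 and 76.0 in HEK-Jag1WT and 39.3 and 42.9 in HEK-Jag1Ndr, and differed by -0.90 log2 units between the Jag1 lines (SE 0.06, edgeR adjusted p 1.21e-28). POP4 was at -0.69 and CCNE1, the cyclin E1 gene, at -0.60. Among the members nearest to them ZNF254 was at -0.24, ZNF681 at 1.54 and ZNF675 at 0.02. The split by side was made after the values were seen.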

How the data were processed

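PolyA RNA of 6 co-culture wells was made into TruSeq v2 libraries, per the labels' protocols, a kit without strand information. Per the submitters' processing notes, STAR was used with hg19 and mm9. The STAR version, the counting tool and how the species were split were not given in the sources used. Per the file headers, the authors deposited 1 table per species, with raw counts for each gene beside its RPKM. Of 24303 human entries, 448 exact repeats were left out and 240 repeated names given a suffix. Counts were fitted with edgeR 4.0.16 (R 4.3.3; TMM, filterByExpr, robust quasi-likelihood, Benjamini-Hochberg over 13596 genes) in an additive model of HEK line and C2C12 line over 6 wells, with 2 residual degrees of freedom. SE and 95% intervals come from that fit. No separate cultures are named, so a p-value reflects the variation among wells of 1 plate alone, possibly technical; an effect particular to 1 pair of lines counts as spread.

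Levels are deposited RPKM. Folds at low reads use reads pooled per line over human gene reads, with an exact 95% counting interval, or 3 reads per line in place of 0 ("at least"); both cover counting error only. The same pooled folds define "at least 4-fold". DESeq2 1.42.0, limma 3.58.1 on log2 (deposited RPKM + 0.1 or + 1), other scalings and filters, no partner term, and each well left out were the alternatives. Order along the chromosome came from the RefSeq table of GRCh38.p14, which matched all 34 members and is used for order only; it differs from the files' build, so no coordinates are given. The members and lists were chosen with earlier results of these data known. Named with values in every well were the 4 members highest in RPKM, the 5 lowest and 3 highest in mean difference of the Jag1 lines from HEK-control, and up to 5 called per direction between the Jag1 lines or the partners; others are named beside the count or place they belong to.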

Additional observations from a re-analysis of the deposited data

How the results depend on the processing

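The labels carry no replicate numbers. Wells pair by their C2C12 line, which is a term of the fit; without that term 7 members were called higher and 1 lower between the Jag1 lines, as with it, and 1 instead of 3 higher in HEK-Jag1Ndr against HEK-control. Of 165 summary values under the alternatives, 137 stayed within their limits. DESeq2 called fewer genes: 4267 in HEK-Jag1WT and 2995 in HEK-Jag1Ndr against HEK-control (edgeR 7373 and 6308), 4866 between the Jag1 lines (7907) and 71 between the partners (732). It called 7 members in HEK-Jag1Ndr against HEK-control, where edgeR called 15. limma called 27 and 25 genes between the partners with 0.1 and 1 added to RPKM, and leaving out 1 well gave 179 to 1434. Among partner calls 61.7% were higher with TMM, 42.0% of 603 with library size only and 87.3% of 71 with DESeq2.

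The members' median log2 difference was -0.60 with at least 50 reads and -0.49 with limma (1 added) in HEK-Jag1WT against HEK-control, and -0.96 to -0.69 with 1 well left out. In HEK-Jag1Ndr against HEK-control the same settings gave -0.21 and -0.19. Between the Jag1 lines they gave 0.23 and 0.032, and 0.0016 to 0.20 with 1 well left out. Between the partners limma gave 0.14 and 0.068 with 0.1 and 1 added, and leaving out 1 HEK-Jag1Ndr well gave 0.13.

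Between the Jag1 lines 7 members that were not called changed sign under some alternatives. ZNF493 was at 0.0061 with DESeq2's size factors, 0.0075 with at least 50 reads and -0.29 to 0.22 with 1 well left out (0.0063 without the HEK-control well beside C2C12-Notch1, 0.20 without the HEK-Jag1WT well beside C2C12-Notch1). With 1 well left out ZNF430 reached -0.00058 and -0.10, ZNF431 -0.0037, ZNF675 -0.00059 within -0.13 to 0.18, ZNF708 0.024 within -0.18 to 0.066, ZNF14 ranged from -0.029 to 0.12 and ZNF90 from -0.57 to 0.76. The cause was not tested. Depth limits the members at a few reads per line, where only a lower bound or a wide interval could be given.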

Other observations

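By order, genes beyond ZNF254 on the far side of the cluster were mostly lower in HEK-Jag1Ndr. This stretch was longer than the list of flanking genes covers. As order alone was used, these genes need not lie close to the cluster or on its chromosome arm. Of the 20 tested genes nearest to ZNF254 on that side, in the order of the RefSeq table, 19 were lower in HEK-Jag1Ndr than in HEK-Jag1WT and 0 higher, with a median log2 difference of -0.71, where 29.9% of all genes were lower and 28.2% higher. Against HEK-control 18 were lower and 1 higher, with a median of -0.66, where 23.5% and 22.9% of all genes were. In HEK-Jag1WT against HEK-control 9 were higher and 3 lower, with a median of 0.12. POP4, a subunit of RNase P, stood at 55.1 and 56.2 RPKM in HEK-control, 48.4 and 50.6 in HEK-Jag1WT and 29.4 and 32.0 in HEK-Jag1Ndr, and CCNE1 at 39.1 and 47.0, 36.3 and 43.3, and 24.9 and 27.3. In both genes the HEK-Jag1Ndr wells lay below all others. On the side of ZNF101 the nearest 20 tested genes had 3 higher and 3 lower in HEK-Jag1Ndr against HEK-control, and 4 higher and 10 lower against HEK-Jag1WT. The stretch of 20 was chosen after the values were seen, and a difference between the sides was not tested.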
